A study of Mus musculus with 25 samples.

Results

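The regions described here are stretches of open chromatin that were called as peaks in hair follicle stem cells (HFSC) of mouse skin and overlapped no peak of 3 other epidermal populations. ATAC-seq, in which a transposase cuts accessible DNA and marks it for sequencing, gave 1 deposited peak list for each of 4 sorted populations: HFSC, epidermal stem cells (EpdSC), cells of wounds and tumour-initiating cells of squamous cell carcinoma. Peaks of the 4 lists that overlapped by at least 1 base were merged into 98107 regions on chromosomes 1 to 19 and X. Of these, 19924 held an HFSC peak and no EpdSC, Wound or Tumor peak, which is 36.3% of the 54929 regions with an HFSC peak. These HFSC-only regions were chosen by the presence or absence of a peak in the 4 lists, so their peak values are given as a description without a test, and the RNA of the same kinds of cells, which the rule did not use, carries the tests.

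The HFSC and EpdSC of the ATAC-seq were sorted from back skin of female mice of mixed CD1 and B6 background at postnatal day 50, as integrin alpha6-high cells that were CD34+ and Sca1- for HFSC and CD34- and Sca1+ for EpdSC. Wound cells came from full- and partial-thickness wounds and were sorted as integrin alpha6+ and Sca1+, a gate that matched the EpdSC and not the HFSC gate for Sca1. Tumor cells were GFP+, integrin alpha6-high and beta1-high cells of grafted carcinomas induced by oncogenic HRas. The RNA-seq held 21 libraries in 3 sets named CL, BK and DS, of female B6 mice, with the skin and wound libraries at day 60. CL had 2 libraries each of the wounded HFSC lineage (YFP+ cells of Sox9CreER;R26-YFP mice, in which tamoxifen-activated Cre marks Sox9-expressing cells and their progeny, from wound biopsies), wounded EpdSC (YFP- cells, also from wound biopsies of such mice), HFSC and EpdSC. BK had 1 wounded EpdSC library and 2 each of HFSC and EpdSC, and DS had 1 library for each of 8 groups, among them integrin-high GFP+ cells of grafted HRas, HRas TbrKO and TbrKO tumours and the HFSC and EpdSC called Tbr. Library totals ran between 14216472 and 36425082 counts, and since the labels name no separate animals for the libraries within a group, p-values measure the spread between libraries, which may be technical.

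Hair follicle stem cells rest in the bulge of the follicle, the niche below the sebaceous gland, and renew the follicle in each hair cycle under alternating BMP and Wnt signals. Transcription factors such as Sox9, Lhx2, Nfatc1 and Tcf7l1 keep their identity, whereas Klf5 is associated with the interfollicular epidermis. Enhancers are short accessible stretches, often far from the gene they act on, where such factors bind, and the accessible enhancers of a cell differ between cell types more than its promoters do. After injury HFSC leave the niche and help to close the epidermis, a setting in which they take on epidermal features.

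The 5 sequences below are promoter windows overlapped by an HFSC-only region and by no other peak. They are shown because their genes are among the follicle stem cell and neural genes whose RNA differed between HFSC and EpdSC. Each runs from 250 bases before to 50 bases after a RefSeq start on mm10 (GRCm38.p6), 5' to 3' on the gene's strand, and capitals mark matches to any of the searched motifs. Cck, a peptide hormone and neurotransmitter, lies on the minus strand with its window at chr9:121495645-121495944, Sphkap, an anchor of protein kinase A, on the minus strand at chr1:83408151-83408450, and Postn, the matrix protein periostin, on the plus strand at chr3:54360857-54361156. Krt24, a keratin of the bulge, has its window on the minus strand at chr11:99285213-99285512, and Tbx1, a T-box transcription factor, on the minus strand at chr16:18588850-18589149.
Cck: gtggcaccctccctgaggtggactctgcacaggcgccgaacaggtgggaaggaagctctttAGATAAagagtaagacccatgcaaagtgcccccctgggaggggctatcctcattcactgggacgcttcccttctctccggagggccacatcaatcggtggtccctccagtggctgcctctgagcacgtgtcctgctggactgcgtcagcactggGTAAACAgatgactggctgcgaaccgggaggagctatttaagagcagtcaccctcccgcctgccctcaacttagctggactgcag
Sphkap: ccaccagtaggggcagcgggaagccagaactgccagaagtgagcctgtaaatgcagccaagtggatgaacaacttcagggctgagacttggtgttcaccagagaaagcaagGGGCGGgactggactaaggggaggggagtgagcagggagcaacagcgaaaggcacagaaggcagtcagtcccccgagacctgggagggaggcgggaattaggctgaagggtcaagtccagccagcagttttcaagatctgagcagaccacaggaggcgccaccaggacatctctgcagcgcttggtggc
Postn: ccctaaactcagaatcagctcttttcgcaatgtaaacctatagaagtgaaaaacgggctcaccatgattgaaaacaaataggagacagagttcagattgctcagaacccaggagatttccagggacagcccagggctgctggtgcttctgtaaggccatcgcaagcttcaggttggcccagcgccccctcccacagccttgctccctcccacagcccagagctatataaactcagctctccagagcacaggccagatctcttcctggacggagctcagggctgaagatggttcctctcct
Krt24: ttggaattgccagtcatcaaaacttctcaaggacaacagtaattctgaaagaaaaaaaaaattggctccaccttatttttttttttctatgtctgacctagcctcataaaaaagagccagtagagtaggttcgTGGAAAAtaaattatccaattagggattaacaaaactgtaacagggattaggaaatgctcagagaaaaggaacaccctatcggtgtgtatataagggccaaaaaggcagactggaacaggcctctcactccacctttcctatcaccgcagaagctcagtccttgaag
Tbx1: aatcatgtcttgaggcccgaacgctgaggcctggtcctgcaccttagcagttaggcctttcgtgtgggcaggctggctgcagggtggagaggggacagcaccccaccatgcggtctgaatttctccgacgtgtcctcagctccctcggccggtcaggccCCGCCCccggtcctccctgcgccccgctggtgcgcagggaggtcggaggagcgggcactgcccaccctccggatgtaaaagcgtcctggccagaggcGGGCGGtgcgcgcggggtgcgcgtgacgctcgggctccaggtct

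The HFSC peak covered all 300 bases of these windows except that of Krt24, of which it covered 93. The Cck window held AGATAA, the core of GATA factor sites, 189 bases before the start and the reverse complement of TGTTTAC, a forkhead core, 35 bases before it. The Sphkap window held GGGCGG, the core bound by Sp factors, 139 bases before its start, and the Tbx1 window held it 6 bases after the start and, on the other strand, 91 bases before it. In the Krt24 window TGGAAAA, an NFAT core, stood 117 bases before the start, in the part that the HFSC peak did not cover. The Postn window held none of the motifs searched, which says only that these letters are not in its 300 bases. The authors' fold enrichment of the peak over its local background was 4.89 at Cck, 3.26 at Sphkap, 6.06 at Postn, 3.50 at Krt24 and 5.10 at Tbx1.

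HFSC-only promoters were rare. Of 21045 RefSeq promoter windows, 423 of 380 genes were overlapped by an HFSC-only region and by no other peak, against 8065 windows in regions of all 4 lists and 9166 with no peak. Their base composition lay between these classes: the median GC content was 59.0% in HFSC-only windows, 62.3% in windows of all 4 lists and 49.0% in windows without a peak, and the median number of CpG dinucleotides was 14, 23 and 4. Motifs were searched on both strands, and the share of windows with a match followed this order for the ETS core CCGGAAG, at 5.20% of HFSC-only windows, 21.02% of windows of all 4 lists, 3.01% of windows with no peak and 11.7% of all windows. The Sp core GGGCGG stood in 54.1% of HFSC-only windows, 70.3% of those of all 4 lists, 20.3% of those with no peak and 46.7% of all windows.

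Cores of other factor families were counted in the same windows. Their shares differed from those of all windows by fewer percentage points. The E-box CAGCTG stood in 21.5% of HFSC-only windows and 15.7% of all windows, the SOX core ACAAAG in 17.7% and 16.8%, the TEAD core GGAATG in 15.8% and 13.5%, and the GATA core AGATAA in 10.2% and 9.68%. The LHX homeodomain core TAATTA stood in 4.26% of HFSC-only windows and 4.47% of all windows, and the NFAT core TGGAAAA in 5.44% and 6.02%. The AP-1 core TGANTCA stood in 3.78% of HFSC-only windows, 4.34% of windows of all 4 lists, 8.91% of windows with no peak and 7.04% of all windows. These shares are descriptions of base strings in promoters and say nothing of the other regions, whose sequence was not read here.

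HFSC-only regions were weaker and narrower peaks than the HFSC peaks shared with another list. Their median length was 439 bases against 738 bases for the 35497 shared HFSC peaks, their median pileup, the number of overlapping fragments at the summit, 23 against 43, and their median fold enrichment 4.52 against 6.54. The HFSC-only regions spanned a fold enrichment of 1.48 to 17.6. When all HFSC peaks were ranked by fold enrichment and divided into 10 equal classes, 59.2% of the weakest class and 11.8% of the strongest were HFSC-only. The lists differed in depth and length: the HFSC list rested on 26825550 fragments and held 55421 peaks, the EpdSC list on 13963471 and 25739, the Wound list on 11140895 and 56854, and the Tumor list on 29579794 and 54181. With the longer lists cut to their strongest 25739 peaks, the number in the EpdSC list, the rule gave 7712 HFSC-only regions instead of 19924. The part of depth in the count of HFSC-only regions was not tested.

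The share of a list's regions that were found in it alone was 36.3% for HFSC, 29.2% for Tumor (15423 regions), 22.4% for Wound (12573) and 8.59% for EpdSC (2177). Without the EpdSC list the rule would have kept 21318 regions, without the Tumor list 22356 and without the Wound list 24932. The HFSC-only share of HFSC peaks ranged between 29.2% on chromosome 19 and 41.9% on chromosome 14. Most HFSC-only regions stood well apart from any peak of the other lists, with a median gap of 6996 bases (quartiles 2612 and 18168), and 919 (4.61%) lay within 500 bases of one.

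The rule divides neighbours at a single shared base. Just inside it, the region chr15:74529259-74530185 near Adgrb1 ended 1 base short of a Tumor peak and had a fold enrichment of 3.95, and chr3:18243030-18243421 near Cyp7b1 stood 3 bases from a Wound peak at a fold of 3.26. Just outside it, the HFSC peak chr1:92791147-92791516 near Gpc1 shared 1 base with a Tumor peak at a fold of 4.19, and chr16:94932327-94932708 near Kcnj6 shared 4 bases with an EpdSC peak at a fold of 3.26. Such cases were few: 18 HFSC-only regions had a gap under 10 bases and 21 shared HFSC peaks had an overlap under 10 bases.

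HFSC-only regions lay away from gene starts. Both ends of a gene counted as starts where no start was listed. Of the 19924 summits, 980 (4.92%) were within 1 kb of the start of a protein-coding gene, 9162 (46.0%) were farther from a start but inside a gene, and 9782 (49.1%) were between genes. For shared HFSC peaks the share within 1 kb was 31.4%, and for HFSC peaks in regions of all 4 lists it was 49.98%. The regions found in a single other list resembled the HFSC-only ones in this, with 3.08% of EpdSC-only, 3.64% of Wound-only and 2.85% of Tumor-only regions within 1 kb of a start. The median distance to the nearest start was 43509 bases for HFSC-only regions and 11976 bases for shared HFSC peaks.

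**Figure D1:**
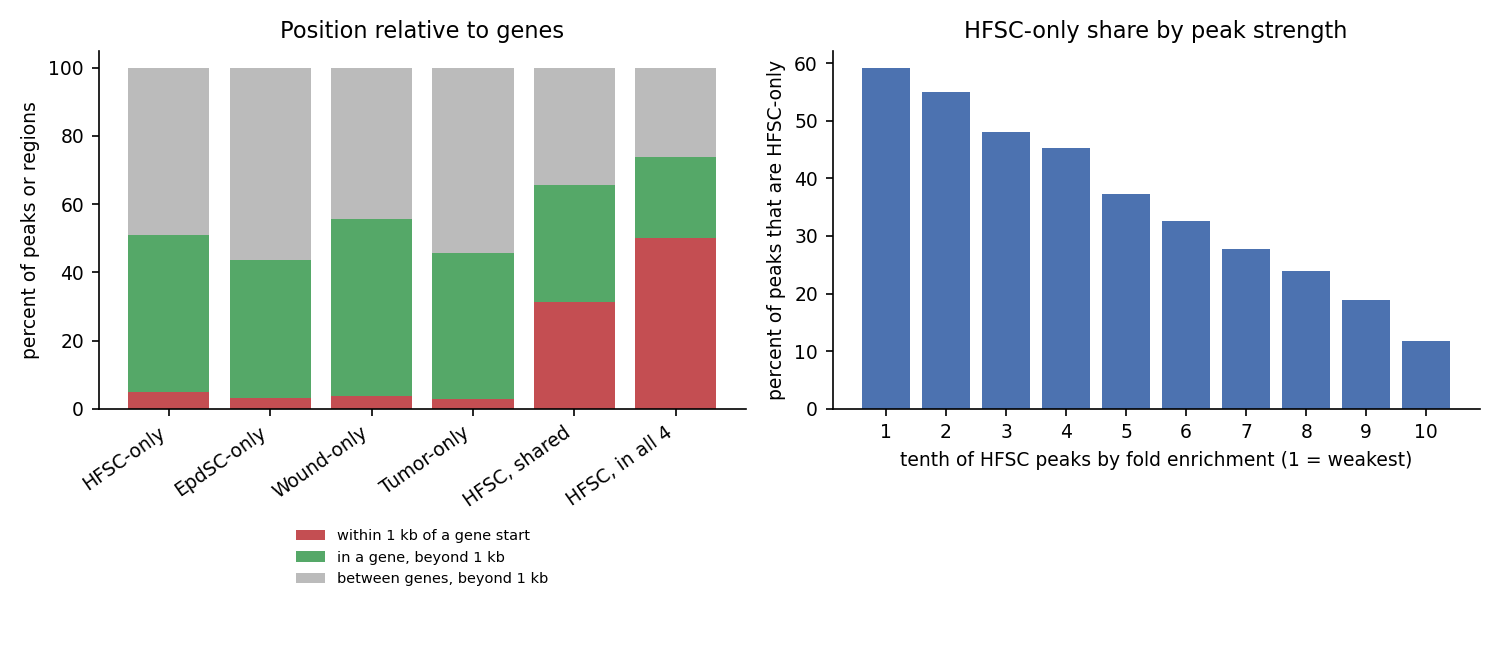
Left, percent of peaks or regions within 1 kb of a gene start (red), inside a gene beyond 1 kb (green) and between genes (grey) for each class; right, percent of HFSC peaks that are HFSC-only in 10 equal classes of fold enrichment. The red part is 4.92% for HFSC-only regions and 49.98% for HFSC peaks in all 4 lists, and the HFSC-only share is 59.2% in the weakest and 11.8% in the strongest class.

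Of the 10 HFSC-only regions of highest fold enrichment, 5 had a gene start, or an end of a gene without a listed start, within 100 kb. The highest, chr3:145498857-145499575 with a fold of 17.6 and a pileup of 212, lay inside the collagen gene Col24a1, and 4 more of the first 10 lay inside genes, namely Macrod2, St6galnac3, Abi3bp and Cntn5. The second, chr10:21724276-21725041 with a fold of 17.3, lay between genes 157593 bases from the start of Sgk1, a kinase of the glucocorticoid response. Of the other 4, chr17:63842016-63842692 (fold 16.0) lay 21570 bases from the start of Fer, a tyrosine kinase, and chr10:109651256-109652298 (fold 15.9) lay 29536 bases from an end of Nav3.

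Each region was linked to the nearest start of a protein-coding RefSeq gene within 100 kb of its summit, with both gene ends taken where no start was listed. Thereby 14139 regions (71.0%) had a gene, 10296 by a listed start and 3843 by a gene end, and 5785 had none. Over all 20388 genes with coordinates, 31.6% had at least 1 HFSC-only region, and the counts of list genes with a region stand beside this share. Of the 24 genes of the follicle stem cell list, 23 had at least 1, 151 in all, and Itga8, an integrin subunit of the bulge, had none. The bulge surface glycoprotein gene Cd34 had 3, the strongest at chr1:194894928-194895832 with a fold of 12.03, 43372 bases from its start. For the Wnt-associated receptor gene Lgr5 it was chr10:115455768-115456565 with a fold of 14.7, inside the gene and 5765 bases from one of its ends, for Lhx2 chr2:38359791-38360370 with 7.19, inside the gene, and for Sox9 chr11:112712829-112713160 with 5.82, 69288 bases away. For the calcium-regulated factor Nfatc1 it was chr18:80593491-80594779 with 11.4, and for the hedgehog effector Gli2 chr1:119070968-119071824 with 11.1.

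Several loci held clusters of HFSC-only regions. Nfib, a nuclear factor I gene active in bulge stem cells, had 27 among its 41 HFSC peaks, Trabd2b, which encodes a protease that inactivates Wnt ligands, 22 of 38, and Palld, which encodes the actin-binding protein palladin, 17 of 30. Atp8a2, a phospholipid flippase gene, had 16 of 16, so that no HFSC peak linked to it was shared with another list. Filip1l had 16 of 31, the Wnt effector gene Tcf7l2 15 of 30, the zinc finger gene Casz1 14 of 30, Farp1 14 of 19, the kinase A anchor gene Akap2 13 of 17 and Ism1, which encodes the secreted protein isthmin, 13 of 25. In the follicle stem cell list Postn had 7 of 8, Tbx1 7 of 9, Lgr5 10 of 15 and Sox9 4 of 10, whereas Prdm1, a transcriptional repressor gene, had 1 of 11.

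**Figure D2:**
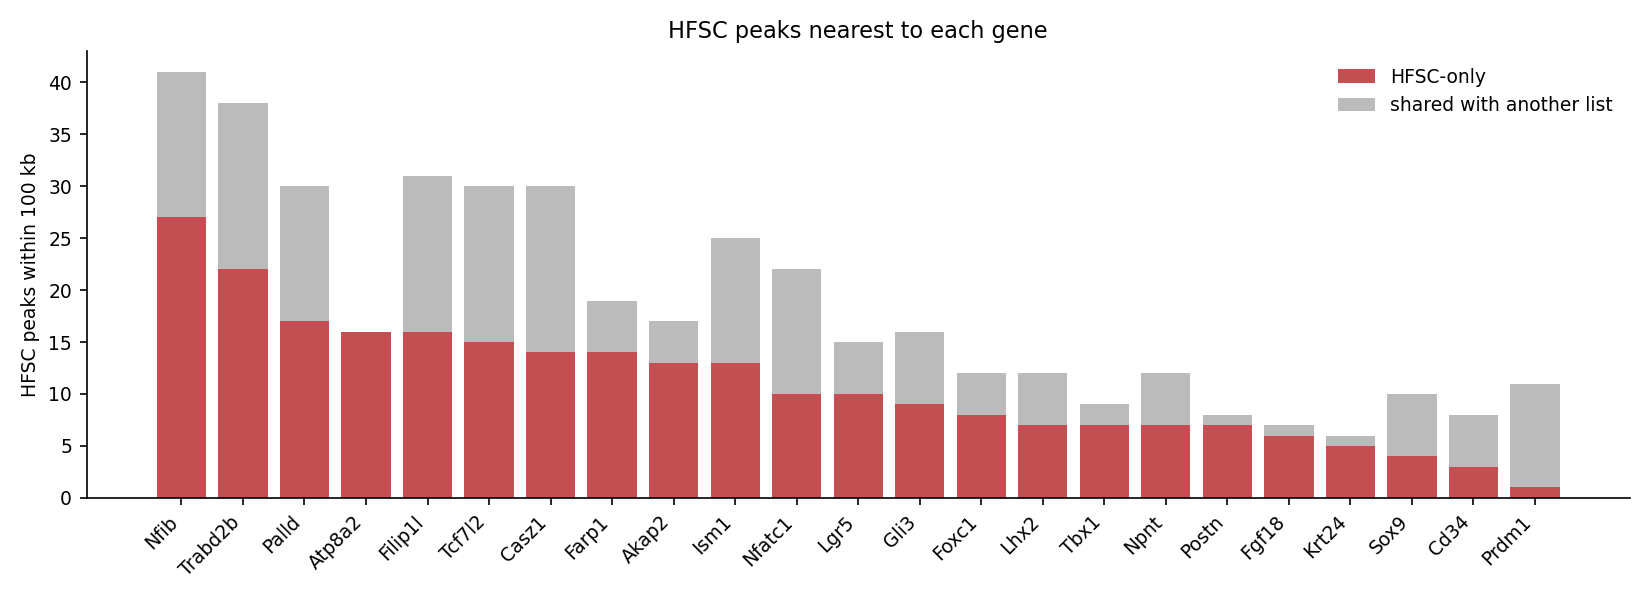
Number of HFSC peaks linked within 100 kb to each named gene, with HFSC-only peaks in red and shared peaks in grey. The first 10 genes have the most HFSC-only regions, from 27 at Nfib to 13 at Ism1, and all 16 peaks of Atp8a2 are HFSC-only.

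Genes with HFSC-only regions were more often higher in HFSC than in EpdSC, and the share increased with the number of regions. RNA levels are in CPM, the counts scaled to the size of the library, and a gene was called where edgeR's quasi-likelihood test gave an adjusted p under 0.05 over all genes tested. In CL, 7.19% of all 14831 tested genes were higher in HFSC and 3.63% lower. Of 6450 genes with an HFSC-only region, 5256 (81.5%) passed the filter on low counts in CL, beside 68.4% of all 20388 genes with coordinates. Of those 5256, 724 were called higher (13.8%) and 248 lower (4.72%), beside 7.51% and 3.74% of the 13940 tested genes with coordinates. A gene with counts in HFSC alone can pass this filter, and the part of such genes in the shares was not tested. The share called higher was 3.72% of genes with no HFSC-only region, 8.85% with 1, 13.8% with 2, 18.7% with 3 or 4, 27.8% with 5 to 9 and 38.2% of the 55 genes with at least 10. The share called lower stayed between 3.14% and 5.45% over the same classes.

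The BK set, which shares no library with CL, gave a like order. There 7.91% of all 14663 tested genes were higher in HFSC and 6.47% lower. Of the 5214 genes with a region 754 (14.5%) were higher and 417 (8.00%) lower, beside 8.09% and 6.72% of the 13733 tested genes with coordinates. The share called higher was 4.19%, 9.83%, 13.2%, 18.9%, 30.1% and 41.8% over the same 6 classes, and the share called lower between 5.45% and 9.95%. Leaving out 1 library moved the counts of calls, with the lone library of a group assumed to vary like the others. In CL 269, 340 or 457 genes with a region were higher without EpdSC A, EpdSC B or HFSC A, and 57, 80 or 77 lower. In BK 1457 or 1292 were higher and 1308 or 874 lower without EpdSC 1 or EpdSC 2, and 186 or 196 lower without HFSC 1 or HFSC 2. The share higher among genes with at least 5 regions and among those with none was 13.1% and 1.11% in CL without EpdSC A, 41.6% and 18.9% in BK without EpdSC 1, and 28.9% and 3.72% in CL and 31.2% and 4.19% in BK with all libraries. The median log2 fold change was -0.05 for genes with no HFSC-only region and 1.41 for those with at least 10 in BK, and -0.05 and 1.13 in CL, beside a median over all genes with coordinates of -0.03 in BK and -0.02 in CL. Genes with more regions were also more abundant, with a median of 43.8 CPM for at least 10 regions and 24.4 CPM for none in CL, and the part of this in the calls was not tested. Of the 2539 genes with at least 2 regions that were tested in both sets, 342 were higher in HFSC in both, 74 lower in both and 5 went opposite ways.

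Regions of the other classes were set beside these without a test, since 1 gene can have regions of several classes. Genes with 5 to 9 Tumor-only regions were called higher in HFSC in 19.5% of 149 cases in CL and 11.8% of 144 in BK, and those with 5 to 9 Wound-only regions in 12.1% of 149 and 8.97% of 145. For HFSC peaks shared with another list the share at 5 to 9 peaks was 15.4% of 1192 genes in CL, and 9.41% at 10 or more. Genes with 2 EpdSC-only regions were lower in HFSC in 21.3% of 122 cases in CL and 23.97% of 121 in BK. Of genes with an HFSC-only region within 1 kb of their start, or of either end where none was listed, 154 of 723 (21.3%) were higher in HFSC in CL. In BK 186 of 727 (25.6%) were higher.

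**Figure D3:**
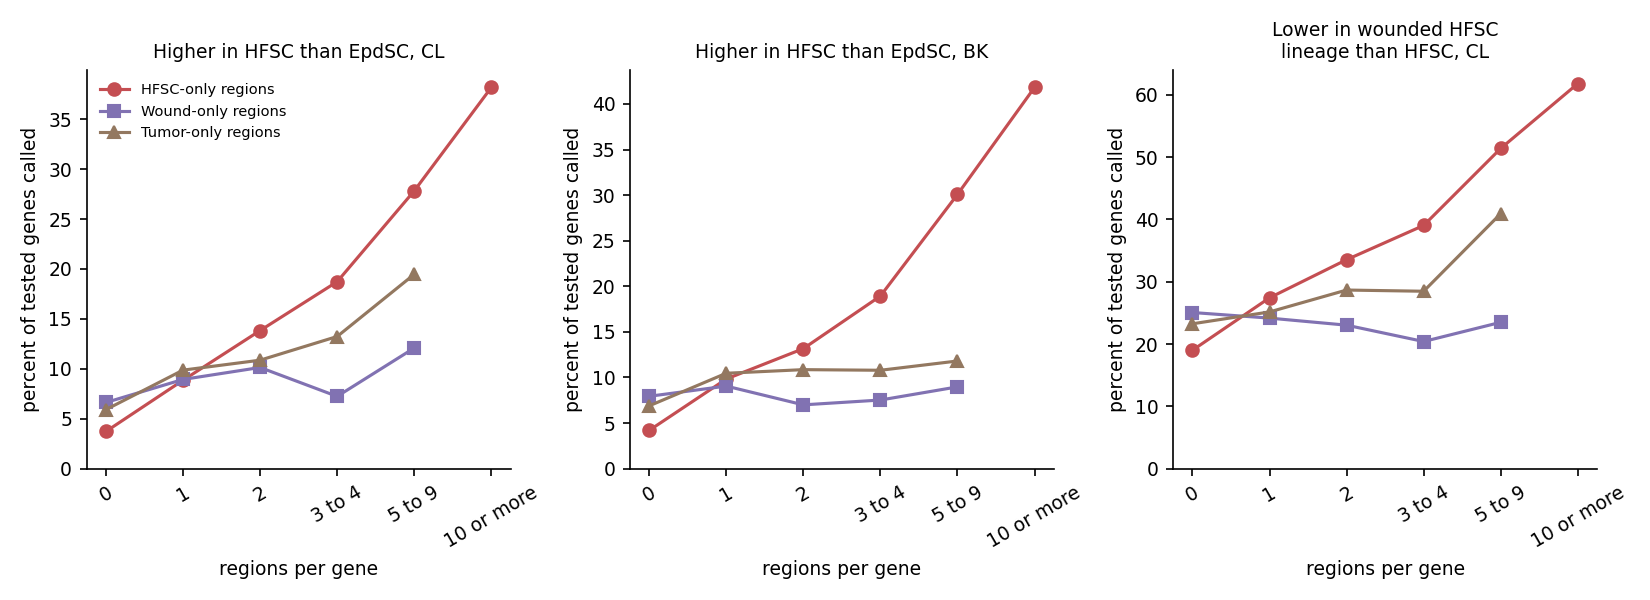
Percent of tested genes called by edgeR against the number of regions linked within 100 kb, for HFSC-only (red circles), Wound-only (purple squares) and Tumor-only (brown triangles) regions; classes of under 20 genes are not drawn. The HFSC-only line climbs to 38.2% of genes higher in HFSC in CL, 41.8% in BK and 61.8% lower in the wounded HFSC lineage.

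Most of the follicle stem cell genes with HFSC-only regions were higher in HFSC. Of the 24 genes of the list, 18 were called higher and none lower in CL (median log2 fold change 3.45), and 19 were higher and none lower in BK (median 4.21). The list was one of follicle stem cell genes, chosen with earlier results of these data known. Its counts and medians are thus a description and no support for a link between regions and RNA. Cd34, which encodes the surface protein by which the HFSC were sorted, was at 660 and 413 CPM in the CL HFSC libraries and at 4.37 and 8.69 CPM in the EpdSC libraries. The HFSC libraries lay far above the EpdSC libraries, with a log2 fold change of 6.38 (SE 0.56, edgeR adjusted p = 0.000554) in CL and 7.88 in BK. As a sorting marker it serves as a check of the labels, and its regions are those of a gene that the sort selected.

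Lhx2, with 7 regions, had 175 and 169 CPM in the CL HFSC libraries against 1.51 and 2.30 CPM in EpdSC, and 496 and 354 CPM against 3.02 and 7.54 CPM in BK. No HFSC library came near an EpdSC library, and by edgeR (adjusted p = 0.000123) the log2 fold change in CL was 6.53 (SE 0.28), and in BK it was 6.32 (SE 0.61, adjusted p = 0.00390). Lgr5, with 10 regions, had 147 and 80.9 CPM in CL HFSC against 0.981 and 0.994 CPM in EpdSC, and 335 and 299 CPM against 1.27 and 5.35 CPM in BK. Its groups were separate in both sets, at a log2 fold change of 6.85 (SE 0.40, edgeR adjusted p = 0.000250) in CL and 6.58 in BK. Tbx1, with 7 regions and an HFSC-only promoter, had 104 and 105 CPM in CL HFSC against 0.695 and 2.36 CPM in EpdSC, a log2 fold change of 6.16 (SE 0.50, edgeR adjusted p = 0.000415).

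Factors that both populations express differed less. Nfatc1, with 10 regions, had 310 and 318 CPM in CL HFSC against 59.1 and 66.4 CPM in EpdSC, and a log2 fold change of 2.33 in CL (edgeR adjusted p = 0.000741) and 2.23 in BK. Sox9, with 4 regions, had 150 and 162 CPM against 18.8 and 25.2 CPM, at a log2 fold change of 2.84 in CL and 3.76 in BK. Foxc1, a forkhead gene of the quiescent bulge with 8 regions, differed by 3.86 in CL and 3.26 in BK on the log2 scale, both called. In these genes too every HFSC library was above every EpdSC library of its set.

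Genes with many HFSC-only regions were not all higher in HFSC. Nfib, with the most regions, had 556 and 403 CPM in CL HFSC and 255 and 269 CPM in CL EpdSC. Its log2 fold change of 0.88 (SE 0.59, edgeR adjusted p = 0.464) in CL and of 1.77 (adjusted p = 0.113) in BK missed the threshold, although each HFSC library was above each EpdSC library. Tcf7l2 at 0.74 in CL and 1.10 in BK, Gli3 at 0.79 and 0.94 and Casz1 at 0.37 and -0.51 also missed it in both sets. Palld missed it narrowly, at edgeR adjusted p = 0.0610 in CL and 0.0532 in BK. Filip1l at 2.03 and Npnt, an integrin ligand gene, at 0.66 missed it in CL and were called higher in BK, at 2.93 and 2.37. The BK call of Npnt ended without HFSC 1 (adjusted p = 0.0702). Krt15, a bulge keratin with 3 regions, had 9706 and 10041 CPM in CL HFSC and 12226 and 10758 CPM in CL EpdSC. It was not called there, at -0.21 on the log2 scale (edgeR adjusted p = 0.721), and was called higher in BK at 1.46, a call that ended without either BK HFSC library (adjusted p 0.181 and 0.222).

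Of the 10 genes with the most regions, Trabd2b, Atp8a2, Farp1 and Ism1 were called higher in HFSC in both sets. Trabd2b had 78.6 and 65.7 CPM in CL HFSC against 5.11 and 4.04 CPM in EpdSC, and 213 and 172 CPM against 6.13 and 7.45 CPM in BK. The HFSC libraries were well above, with a log2 fold change of 3.98 (SE 0.28, edgeR adjusted p = 0.000312) in CL and 4.82 in BK. Atp8a2 was a gene of low level, at 10.3 and 6.29 CPM in CL HFSC against 0.0409 and 0.248 CPM in EpdSC, a log2 fold change of 5.97 (SE 0.76, adjusted p = 0.00247 by edgeR). Ism1 had 82.8 and 74.8 CPM against 19.8 and 20.6 CPM, at 1.98 on the log2 scale, and its CL call ended when any 1 of the 4 libraries was left out (adjusted p 0.0627 to 0.169). Akap2 was called higher in CL alone, at 2.29, and its call ended without either EpdSC library or without HFSC A; in BK its value of 1.10 was not called, and CL and BK were not tested against each other.

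**Figure D4:**
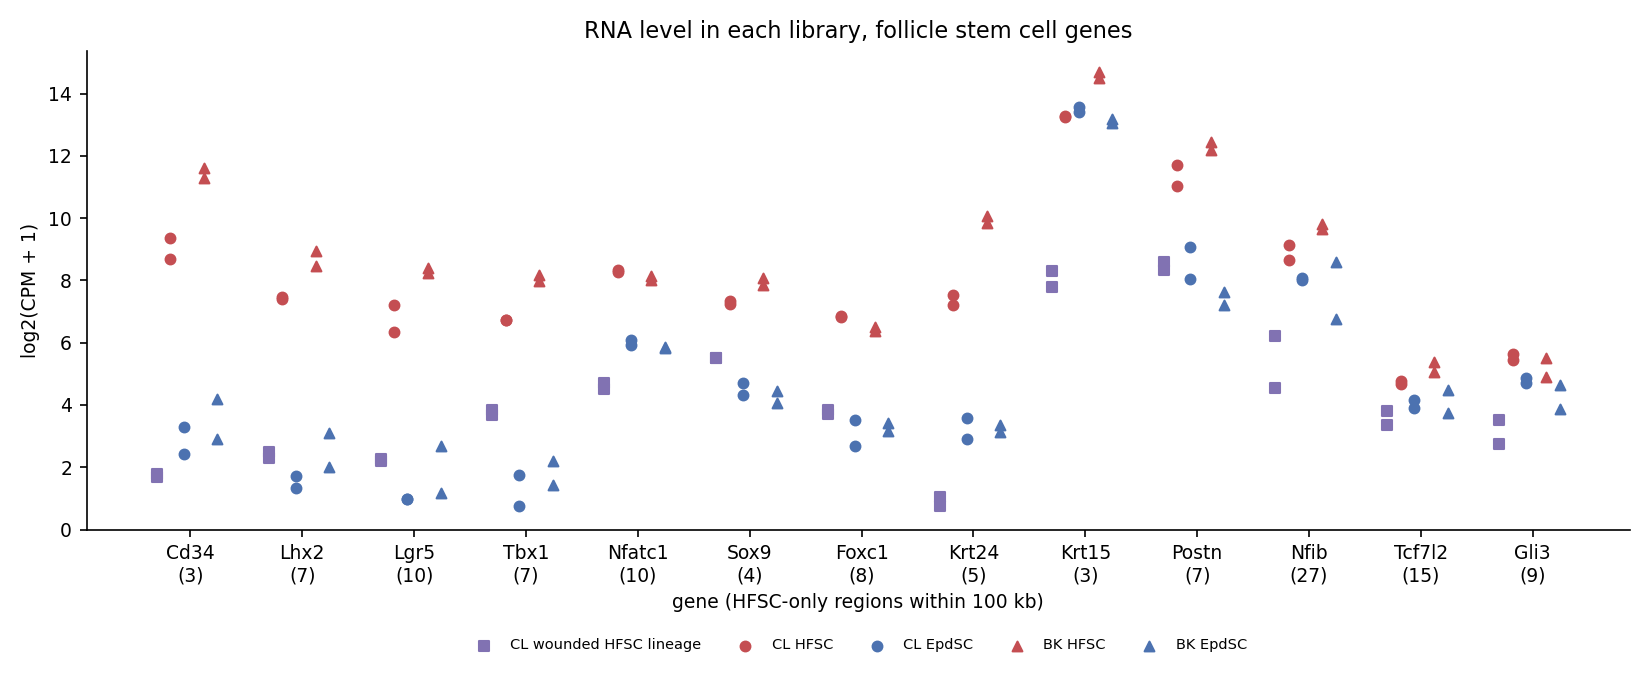
RNA level of 13 genes of the follicle stem cell list in each library as log2(CPM + 1), with the number of HFSC-only regions under each name; squares are the CL wounded HFSC lineage, circles CL and triangles BK, red HFSC and blue EpdSC. Cd34, Lhx2, Lgr5 and Tbx1 are separate by several log2 units, whereas Krt15, Tcf7l2 and Gli3 are close between HFSC and EpdSC and lower in the wounded lineage.

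Most genes of the Wnt, BMP and hedgehog signalling list carried HFSC-only regions, and more were called higher in HFSC than lower. Of the 21 genes of that list, 19 had a region, 11 were called higher and 1 lower in CL, and 13 higher and 2 lower in BK. Fzd7, a Wnt receptor gene with 8 regions, had 361 and 283 CPM in CL HFSC against 20.5 and 30.9 CPM in EpdSC, higher by 3.65 on the log2 scale in CL (edgeR adjusted p = 0.000359) and by 3.72 in BK. The Wnt inhibitor gene Wif1 had 22.5 and 33.4 CPM against 0 and 0.0621 CPM in CL, and the BMP target gene Id2 had 124 and 102 CPM against 9.68 and 13.0 CPM, both with 4 regions and both called higher in both sets. Where a group had no counts, bounds here and below divided the other group's mean CPM by the mean CPM that 3 counts make. They leave out the spread between libraries. Hhip, which encodes a decoy receptor for hedgehog ligands, had 13.9 and 7.70 CPM in CL HFSC and 0 in both EpdSC libraries. By the means it was at least 69.9-fold higher in HFSC, taking 3 counts as the limit that a count of 0 allows in each library. Against this direction, Bmp4 had no HFSC-only region and was lower in HFSC by 4.06 on the log2 scale in CL, and Axin2, a Wnt target with 3 regions, was lower in BK at -1.33, a call that ended without HFSC 1 or HFSC 2 (adjusted p 0.525 and 0.368).

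Among the TGF-beta and YAP genes, 3 were higher in HFSC in both sets, and each had many regions. Ctgf, a matricellular YAP target with 9 regions, had 601 and 849 CPM in CL HFSC against 17.5 and 26.0 CPM in EpdSC, a log2 fold change of 5.07 (SE 0.43, edgeR adjusted p = 0.000487) in CL and 7.41 in BK. Ltbp2, whose product belongs to the latent TGF-beta binding proteins, had 5 regions and differed by 5.13 in CL and 7.15 in BK, and Ltbp1, with 8 regions, by 2.87 and 3.32. The other YAP target Cyr61, with 1 region, was not called, at -0.72 in CL and -1.28 in BK. Of 11 tested genes of the list none was lower in CL and 3 were lower in BK, among them the receptor gene Tgfbr2 with 5 regions at -1.44. The BK call of Tgfbr2 ended without HFSC 1 or HFSC 2 (adjusted p 0.380 and 0.425), as did that of Pmepa1, another of the 3 (0.177 and 0.343).

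Of the 16 genes of neural signalling and guidance, 12 passed the filter on low counts in each set. Their median log2 fold change was 5.08 in CL and 5.39 in BK. Genes without counts in EpdSC could pass that filter only through other groups, and the list was chosen with earlier results known. The median is thus a description of the tested genes. Of the 16 genes of the list 8 had an HFSC-only region, beside 31.6% of all genes, and of 12 tested in each set 8 were higher in HFSC and 1 lower. Cck, with 5 regions including its promoter, had 22.8 and 26.1 CPM in CL HFSC against 0.0409 and 0.373 CPM in EpdSC, and 36.2 and 40.7 CPM against 0.178 and 0.229 CPM in BK. HFSC and EpdSC did not overlap, and the log2 fold change was 7.05 (SE 0.75, edgeR adjusted p = 0.00186) in CL and 7.55 in BK. The guidance gene Sema3e, with 9 regions, had 177 and 127 CPM against 2.08 and 2.48 CPM in CL, at 6.07 on the log2 scale, a call that ended in CL without either EpdSC library (adjusted p 0.103 and 0.0823). Sphkap had 5.51 and 4.48 CPM in CL HFSC and no count in either EpdSC library, at least 32.3-fold higher, and its CL call ended without EpdSC A or HFSC A (adjusted p 0.0505 and 0.0561) and its BK call with DESeq2 (adjusted p = 0.0897). The guidance receptor gene Robo1, with 1 region, was lower in HFSC at -1.79 in CL and -3.13 in BK, with a CL call that ended without any 1 of the 4 libraries (adjusted p 0.0506 to 0.108).

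In the matrix and adhesion list 11 of 13 genes had a region, and 6 were higher in CL and 7 in BK with none lower. Itgb6, an integrin subunit gene with 8 regions, was at 23.9 and 11.8 CPM in CL HFSC and 11.9 and 19.5 CPM in CL EpdSC, where the groups overlapped, and was called higher in BK at 1.72, a call that ended without either HFSC library. Col17a1, a hemidesmosomal collagen gene with 7 regions, was not called in CL (-0.46) or BK (-0.02). Among the 17 genes of the EpdSC list, 13 had HFSC-only regions, 33 in all. Klf5 and Gata3, with 3 each, were lower in HFSC in both sets, at -1.61 and -1.60 in CL and -3.12 and -1.97 in BK, but both CL calls ended without HFSC A or EpdSC A, that of Klf5 also without EpdSC B, and the BK call of Gata3 ended without either HFSC library. Irx4, an Iroquois homeobox gene with 6 regions, was higher in HFSC, at 93.8 and 108 CPM in CL HFSC against 9.32 and 18.1 CPM in EpdSC and a log2 fold change of 2.89 in CL and 2.55 in BK.

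The 10 genes with at least 2 regions and the highest CL fold change among those called in both sets were Hhip, Bdnf, Sphkap, Wif1, Slc22a3, Gfra2, Lef1, Loxl1, Spock1 and Basp1. They were genes near or at 0 in EpdSC: apart from Wif1 and Gfra2, none had a count in either CL EpdSC library. Bdnf, a neurotrophin gene with 6 regions, had 12.2 and 6.14 CPM in CL HFSC, at least 59.5-fold above EpdSC, but its CL call was lost with DESeq2 (adjusted p = 0.181) and without any 1 of the 4 libraries (edgeR adjusted p 0.0588 to 0.142). The CL calls of Spock1 and Basp1 also ended without any 1 of the 4 libraries, those of Slc22a3 without either EpdSC library or HFSC A, and those of Lef1 and Loxl1 without EpdSC A. Gfra2, a receptor gene for neurturin, had 14.8 and 18.1 CPM in CL HFSC against 0.0409 and 0 CPM in EpdSC and was called in each of these fits.

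The 10 lowest by the same rule were Lama1, Adamts14, Bmpr1b, Sox6, Gna14, Camk1d, D6Ertd527e, Slc2a12, Wnk2 and Ngfr, with 2 or 3 regions each. Adamts14, a metalloprotease gene, had 6.33 and 13.6 CPM in CL HFSC against 316 and 263 CPM in EpdSC, and 4.70 and 8.86 CPM against 139 and 259 CPM in BK. Its HFSC libraries were far below, at a log2 fold change of -4.85 (SE 0.46, edgeR adjusted p = 0.000709) in CL and -4.89 in BK. The SoxD factor gene Sox6 had 3.36 and 7.92 CPM in CL HFSC against 150 and 106 CPM in EpdSC, at -4.50 in CL and -4.27 in BK. Ngfr, the low-affinity neurotrophin receptor gene, had 7.38 and 13.0 CPM against 88.6 and 78.7 CPM in CL, at -3.03 in CL and -2.66 in BK.

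Of the 380 genes with an HFSC-only promoter, 279 were tested in CL and 79 of those (28.3%) were higher in HFSC and 9 lower. In BK 95 of 291 (32.6%) were higher and 17 lower, and 66 genes were higher in both sets. Krt24 had 184 and 147 CPM in CL HFSC against 6.58 and 11.1 CPM in EpdSC, at a log2 fold change of 4.25 (SE 0.33, edgeR adjusted p = 0.000382) in CL and 6.84 in BK. Postn had 3343 and 2077 CPM in CL HFSC against 263 and 540 CPM in EpdSC, at 2.76 in CL and 4.89 in BK, and its CL call ended without EpdSC A (adjusted p = 0.0968) or HFSC A (0.0532).

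Genes that mark other cells of the skin also carried HFSC-only regions. In the melanocyte list Mitf, the melanocyte master regulator, had 11 regions, Sox10 2 and Dct 1, and the summed level of its 6 genes was 58.1 to 91.0 CPM in CL HFSC against 15.8 to 21.2 CPM in CL EpdSC, and 103 to 173.5 CPM against 8.68 to 20.2 CPM in BK. In the dermal fibroblast list 6 of 8 genes had a region, with 8 at Col1a2, 6 at Pdgfra and 4 at Col1a1, and the summed level was 35.3 to 38.2 CPM in CL HFSC against 2.42 to 2.78 CPM in EpdSC, and 88.4 to 93.3 CPM against 1.14 to 3.61 CPM in BK. Of the fibroblast genes, 2 of 8 tested were called higher in CL and 3 of 5 in BK, with none lower. Col1a2 made up most of the sum in CL HFSC. It had 30.1 and 29.9 CPM there against 0.572 and 0.931 CPM in EpdSC, called at 5.36 on the log2 scale in CL and 6.65 in BK. The fibroblast marker Lum had no count in CL HFSC and a mean of 0.186 CPM in CL EpdSC. Mitf was called at 2.41 in CL, a call that ended without any 1 of the 4 libraries, and at 3.39 in BK.

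The endothelial list had 19 regions at 7 of 8 genes, its summed level was 1.02 to 4.74 CPM in CL HFSC against 0.497 to 0.654 CPM in EpdSC, and none of its tested genes was called in either set. Defining endothelial genes were near 0, and Kdr had no count in CL EpdSC. None of 6 immune and 5 skeletal muscle genes had an HFSC-only region, and of the Schwann, sebaceous and adipocyte lists 1 of 5, 2 of 5 and 2 of 4 genes had one. Of the 5 sebaceous genes, 3 were called higher and 1 lower in CL HFSC (median log2 fold change 2.89), and their summed level was 232 to 261 CPM in CL HFSC against 290.6 to 364 CPM in EpdSC. In BK the median was 1.56, and Mgst1, not called by edgeR, was called higher by DESeq2. The part of other cells in the HFSC peaks or in the RNA was not tested. In such bulk samples, fewer cells of a type and less RNA per cell cannot be told apart.

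After wounding, genes with HFSC-only regions were lower in the HFSC lineage. This comparison shares the 2 CL HFSC libraries with that of HFSC and EpdSC, so the values stand side by side and are no independent support for each other. In the wounded HFSC lineage 21.4% of the 14831 tested genes were higher and 24.7% lower than in HFSC. Of the 5256 tested genes with a region 951 (18.1%) were higher and 1757 (33.4%) lower, beside 22.1% and 24.4% of the 13940 tested genes with coordinates. The share called lower was 19% with no HFSC-only region, 27.4% with 1, 33.5% with 2, 39.0% with 3 or 4, 51.4% with 5 to 9 and 61.8% with at least 10, and the share called higher 24.5%, 21.2%, 18.02%, 14.9%, 9.48% and 3.64%. The median log2 fold change was 0.07 for genes with no region and -2.29 for genes with at least 10, beside -0.06 over all genes with coordinates. Without HFSC A or wounded lineage A, 631 or 625 genes with a region were higher, and without wounded lineage A or B, 1120 or 1134 were lower. Without wounded lineage A the share lower was 35.2% of genes with at least 5 regions and 9.37% of genes with none.

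Genes with 5 to 9 Wound-only regions were higher in the wounded lineage in 34.2% of 149 cases and lower in 23.5%, and those with 5 to 9 Tumor-only regions higher in 17.4% and lower in 40.9%. Genes with 1, 2 and 3 or 4 EpdSC-only regions were lower in 29.7% of 718, 36.9% of 122 and 48.1% of 27 cases. They were higher in 18.4%, 19.7% and 7.41%. With 5 to 9 and at least 10 HFSC peaks shared with another list, 35.2% of 1192 and 43.1% of 202 genes were lower. In these classes 21.1% and 17.3% were higher. A share lower that rose with the number of regions was thus not particular to HFSC-only regions. Of the 380 genes with an HFSC-only promoter, 21 of 279 tested (7.53%) were higher and 159 (57.0%) lower in the wounded lineage. The wounded cells were sorted by the YFP mark and not by CD34, so the gates of the 2 groups differed as well as the wounding, and these cannot be told apart. Markers of other cells moved as well: the melanocyte list, with 14 HFSC-only regions, summed to 5.28 to 6.46 CPM in the wounded lineage against 58.1 to 91.0 CPM in HFSC, and 4 of its 5 tested genes were lower (median -3.07). The fibroblast list summed to 6.51 to 9.36 CPM against 35.3 to 38.2 CPM, with 1 gene higher and 2 lower of 8, and the immune list to 23.2 to 27.5 CPM against 35.7 to 97.9 CPM, with 1 higher and 3 lower of 6. The endothelial list summed to 5.67 to 6.14 CPM in the wounded lineage against 1.02 to 4.74 CPM in HFSC. The part of these cells in the lower calls was not tested.

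Of the follicle stem cell list, 20 of 24 genes were lower in the wounded lineage and none higher, with a median log2 fold change of -3.14. Cd34 had 2.21 and 2.42 CPM in the wounded lineage against 660 and 413 CPM in HFSC, at -7.87 (SE 0.61, edgeR adjusted p = 8.1e-05). Lgr5 had 3.62 and 3.83 CPM against 147 and 80.9 CPM, at -4.95, and Lhx2 4.58 and 3.94 CPM against 175 and 169 CPM, at -5.36, so that both were under 5 CPM, beside 0.981 to 2.30 CPM in EpdSC. Sox9, the gene that drives the lineage mark, had 44.1 and 44.9 CPM in the wounded lineage against 150 and 162 CPM in HFSC, at -1.83 (SE 0.26, edgeR adjusted p = 0.00113), and lay above the EpdSC libraries at 18.8 and 25.2 CPM.

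Some genes that were not called between HFSC and EpdSC in CL were lower here. Nfib had 22.5 and 73.9 CPM in the wounded lineage against 556 and 403 CPM in HFSC, at -3.33 (SE 0.64, edgeR adjusted p = 0.00446). Casz1 had 49.2 and 59.8 CPM against 253 and 272 CPM, at -2.29, and Krt15 had 313 and 219 CPM against 9706 and 10041 CPM, at -5.23. Gli3 was at -2.52 and Tcf7l2 at -1.22, but the call of Gli3 ended without wounded lineage A (adjusted p = 0.0659) and that of Tcf7l2 without any 1 of the 4 libraries (0.0564 to 0.150). Palld at 0.28 and Filip1l at -0.61 were not called.

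Of the 10 genes with the most regions, 8 were lower in the wounded lineage and none higher. Ism1 had 0.428 and 0.186 CPM in the wounded lineage against 82.8 and 74.8 CPM in HFSC, at -7.98 (SE 0.53, edgeR adjusted p = 4.72e-05), which was below the EpdSC libraries at 19.8 and 20.6 CPM. Trabd2b had 5.96 and 3.98 CPM against 78.6 and 65.7 CPM, at -3.87, and Atp8a2 0.231 and 0.298 CPM against 10.3 and 6.29 CPM, at -4.98. Cck had no count in either library of the wounded lineage, at least 233-fold lower than in HFSC, and Sphkap was at least 47.5-fold lower.

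Of the signalling genes, 18 of 21 in the Wnt, BMP and hedgehog list were lower in the wounded lineage and none higher, with a median of -2.41. Ctgf fell to 15.8 and 9.48 CPM in the wounded lineage, against 601 and 849 CPM in HFSC, at -5.86 on the log2 scale, and Ltbp2 differed by -8.95. Against this direction, Basp1, which encodes a membrane-bound growth cone protein, had 20.4 and 36.9 CPM against 1.16 and 1.41 CPM (4.46), Tnc, the matrix protein tenascin C with 6 regions, 152 and 264 CPM against 45.3 and 42.0 CPM (2.23), and Itgb6 49.0 and 71.0 CPM against 23.9 and 11.8 CPM (1.73), all called higher. Bmpr1b, a BMP receptor gene that was lower in HFSC than in EpdSC, was at 11.2 and 22.8 CPM in the wounded lineage against 0.254 and 0.111 CPM in HFSC, called higher at 6.43. Of the wound keratins and alarm proteins, 9 of 10 were higher in the wounded lineage, and 2 of the 10 had an HFSC-only region, 1 each, beside 31.6% of all genes.

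In the AP-1 list, genes of stress-responsive transcription factors, 4 of 9 had an HFSC-only region, beside 31.6% of all genes, and 8 of 9 were lower in the wounded lineage. Fos, with 1 region, had 42.2 and 56.0 CPM in the wounded lineage against 4834 and 8495 CPM in HFSC. In HFSC against EpdSC 6 of 8 tested AP-1 genes were lower in BK and 1 of 9 in CL. The BK calls of Fos, Jun and Junb ended without HFSC 2 (adjusted p 0.0819, 0.295 and 0.0556), and the CL call, that of Fosl1, ended without EpdSC A, EpdSC B or HFSC A (0.0652 to 0.101). The level of these genes in the unwounded CL libraries, between 2757 and 9073 CPM for Fos and Jun, stands beside all comparisons with the wounded lineage, and its part in them was not tested.

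In tumours, genes with many HFSC-only regions were lower than in HFSC as well, in the HRas and HRas TbrKO tumours more than in the TbrKO tumour. With 1 library for each of the HRas, HRas TbrKO and TbrKO integrin-high tumours and 1 Tbr HFSC library, no test was made and fold changes were taken as log2((CPM + 1) of the tumour over (CPM + 1) of Tbr HFSC), which understates the change of low genes. Of the 13650 genes at 1 CPM or more in any of these libraries, 3.63% were at least 4-fold lower in all 3 tumours and 3.14% at least 4-fold higher. At least 4-fold lower were 2.096% of genes with no HFSC-only region, 4.03% with 1, 6.33% with 2, 6.86% with 3 or 4, 12.9% with 5 to 9 and 29.6% of the 54 genes with at least 10, whereas the share higher was between 2.62% and 3.71%. The median log2 ratio for at least 10 regions was -2.11 in the HRas, -2.44 in the HRas TbrKO and -0.75 in the TbrKO tumour. For 5 to 9 regions it was -0.81, -0.98 and -0.12 in the same order, beside 0.13, 0.15 and 0.09 over all genes.

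**Figure D5:**
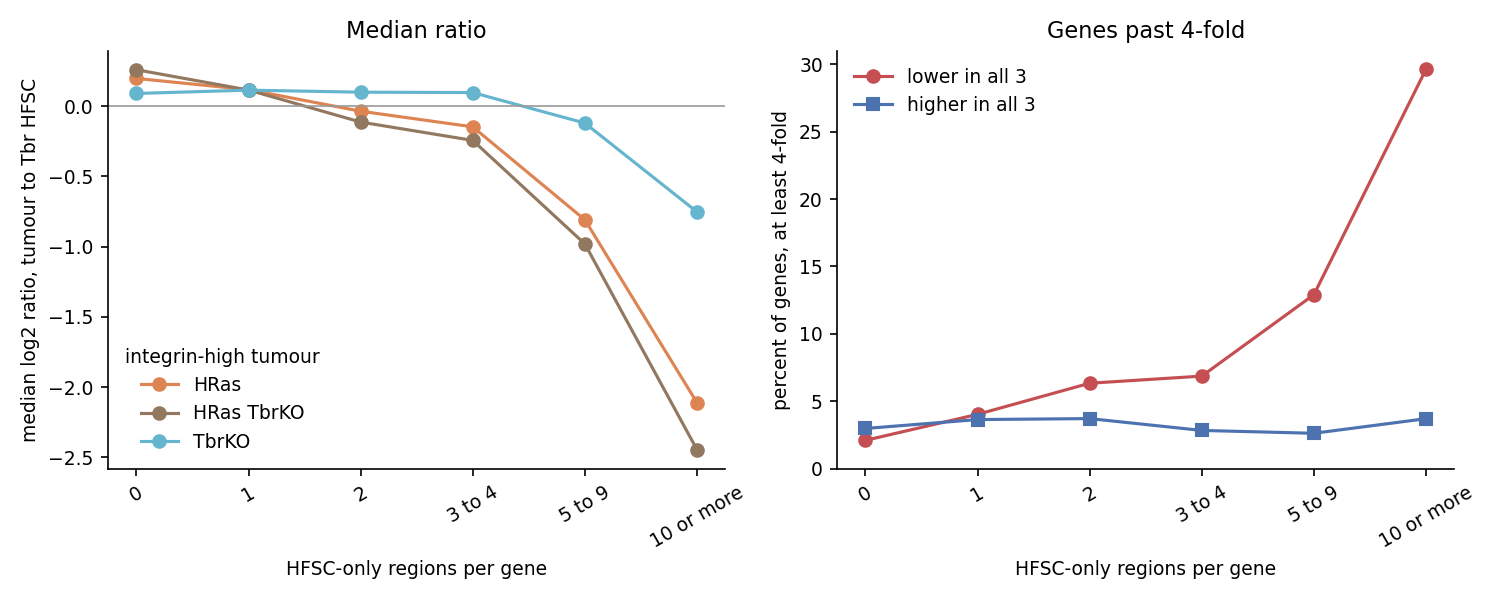
Left, median log2 ratio of each integrin-high tumour library to the Tbr HFSC library (pseudocount 1 CPM) by the number of HFSC-only regions per gene; right, percent of genes at least 4-fold lower (red circles) or higher (blue squares) in all 3 tumours. The share lower is 29.6% with at least 10 regions and 2.096% with none, and the TbrKO tumour lies nearest to 0 among genes with 5 or more regions.

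Single genes differed between the tumours. Lhx2 had 0.472, 0.234 and 0.692 CPM in the HRas, HRas TbrKO and TbrKO tumours against 288 CPM in Tbr HFSC, and Atp8a2 0.109, 0.0390 and 0.115 CPM against 18.98 CPM, so that all 3 were low. Lgr5 had 1.16, 0.546 and 28.8 CPM against 264 CPM, and Nfib 66.9, 38.8 and 128 CPM against 1218 CPM, with the TbrKO tumour the highest of the 3 and still below HFSC. Postn had 229, 144 and 3842 CPM against 5510 CPM, and Foxc1 23.6, 20.2 and 115 CPM against 126 CPM, so that the TbrKO tumour lay close to HFSC. The tumour libraries also held RNA of genes that mark other cells: the summed fibroblast list was 2357, 994 and 1780 CPM in the HRas, HRas TbrKO and TbrKO tumours against 38.2 CPM in Tbr HFSC, and the endothelial list 213, 129 and 63.6 CPM against 2.19 CPM. All 8 genes of either list had counts in each tumour. Whether this RNA came from other cells or from the tumour cells was not tested, nor was its part in the ratios.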

How the data were processed

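The deposited files used were 4 ATAC-seq peak lists and 1 RNA-seq table of counts per gene for 21 libraries. Per the file headers, the authors called peaks with MACS2 (2.1.1.20160309) on paired-end fragments, with no control library, a q threshold of 0.05 and duplicates kept, in 1 list per population with no replicates, so populations could not be tested. The submitters' processing notes name STAR, Bowtie and Picard, with the build mm10. Per the file headers, the deposited pileup is a signal in fragments, the deposited fold is a ratio over the local background, and the deposited significance is a −log10 of a p-value or q-value. The deposited counts of 24061 symbols were used as given, of which 20388 were matched to RefSeq coordinates (GRCm38.p6). No column was left unmatched to a sample.

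Regions, links and shares were computed with Python 3.11.15 (numpy 2.4.6, pandas 2.3.3). Where the promoter table listed no start, both gene ends served, and no exon positions were used. The counts went into edgeR 4.0.16 under R 4.3.3 (TMM, filterByExpr, quasi-likelihood, Benjamini-Hochberg over all genes tested, threshold 0.05) with 1 mean per group over all libraries of CL or BK, and with DESeq2 1.42.0 as an alternative. The test was checked on simulated data. Named genes were the 10 with the most regions, the 10 most changed each way with at least 2 regions and called alike in CL and BK, and list members. Named regions were the 10 of highest fold and the strongest at each follicle stem cell gene. The members and lists were chosen with earlier results of these data known. The motif search at summits needs a genome and was replaced by promoter windows.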

Additional observations from a re-analysis of the deposited data

Results flagged for a closer look

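In 5 genes with at least 2 HFSC-only regions, HFSC and EpdSC differed in opposite directions in CL and BK: each HFSC library was above each EpdSC library in CL and below each in BK, and edgeR called both. For each of the 5, both calls ended without some single library. These genes were singled out after their values were seen, among 2539 tested in both sets, and no test set CL against BK.

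Adamts1, a metalloprotease gene with 7 regions, had a log2 fold change of -1.86 in BK and 1.53 in CL. It had 35.6 and 28.2 CPM in BK HFSC against 87.4 and 141.8 CPM in BK EpdSC, and 117 and 140.3 CPM in CL HFSC against 40.6 and 49.5 CPM in CL EpdSC, and its BK call ended without HFSC 1 or HFSC 2 (adjusted p 0.131 and 0.258) and its CL call without EpdSC A, EpdSC B or HFSC B (0.0521 to 0.117). Car12, a carbonic anhydrase gene, was at -2.12 in BK and 1.12 in CL, and ended without either BK HFSC library (0.0512 and 0.208) and in CL without EpdSC A, EpdSC B or HFSC A (0.0676 to 0.150). Cd97, an adhesion receptor gene, was at -1.61 in BK and 1.09 in CL, and ended without either BK HFSC library (0.304 and 0.254) and without any 1 of the 4 CL libraries (0.0984 to 0.288). Ncaph, a condensin subunit gene, was at -2.65 in BK and 0.98 in CL, and ended in BK without HFSC 2 (0.0506) and in CL without any 1 of the 4 libraries (0.108 to 0.262). Prkag3, a subunit gene of the kinase AMPK, was at -7.08 in BK and 2.56 in CL on very few counts, with none in either BK HFSC library, so that it was at least 6.67-fold lower there; its calls ended without either BK HFSC library (0.0729 and 0.0634) and in CL without EpdSC A, EpdSC B or HFSC A (0.0645 to 0.140).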

How the results depend on the processing

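The HFSC-only rule gave between 13705 and 24247 regions when the q threshold was raised, when an overlap of 50% of the peak was required or when a gap under 500 bases counted as shared, and 7712 when the 3 longer lists were reduced to the strongest 25739 peaks. With only the 4 libraries compared, genes with a region that were lower in HFSC numbered 461 in CL. Links within 20 kb gave 273 genes lower in BK HFSC and 614 genes higher in the wounded HFSC lineage. Leaving out 1 library each, the genes higher in HFSC numbered 269 to 489 in CL (269 without EpdSC A) and 550 to 1457 in BK, those lower 57 to 182 in CL and 186 to 1308 in BK, and those of the wounded lineage 625 to 695 higher and 1120 to 1425 lower. Among genes with at least 5 regions, the share higher was 13.1% to 22.2% in CL and 23.4% to 47.7% in BK, and the share lower in the wounded lineage 35.2% to 44.6%, each beside 28.9%, 31.2% and 52.5% with all libraries. The cause of these shifts was not tested. No call of a named gene reversed, but leaving out 1 library ended 44 of 97 such calls in CL, 28 of 107 in BK and 39 of 142 in the wounded lineage; Krt6a, not called in BK at -0.33, ran between -1.21 and 2.32 without 1 library and was called at the upper value, without EpdSC 1. The library numbers of the groups compared did not pair the samples: the deviations of same-numbered libraries correlated at -0.022 (HFSC and EpdSC, CL), -0.177 (HFSC and wounded lineage) and -0.244 (BK), though at 0.455 between the wounded HFSC lineage and wounded EpdSC, which were not compared. The replicate block ended the BK calls of Axin2 and Tgfbr2 (adjusted p 0.0744 and 0.0507) and the CL calls of Ncaph and Spock1 (0.0608 and 0.0602), among others, and gave 677 and 226 genes higher and lower in CL, 892 and 456 in BK, and 905 and 1701 in the wounded lineage. A crossed pairing of BK, added after seeing the data, gave 1145 higher and 709 lower. The motif search around summits and its 100-base window were not run. Depth limits genes near 1 CPM, where 0 counts in EpdSC leave a bound only.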
